A study of Mus musculus with 18 samples.

Results

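Fat cells can spend ATP without doing net work by running opposed reactions at the same time. In the creatine cycle, creatine kinases phosphorylate creatine at the cost of ATP, and phosphatases release the phosphate again. In the calcium cycle, a SERCA pump moves calcium into the endoplasmic reticulum at the cost of ATP, and release channels such as the ryanodine receptors let it out. Both cycles are known from thermogenic fat, where they can add to the heat that uncoupling protein 1 (UCP1) produces. The 10 genes described here belong to these cycles and were chosen by gene symbol, with earlier results of these data known. They were 10 of the 45151 symbols that all 18 deposited expression files share. Gatm and Gamt make creatine, Slc6a8 takes it up, Ckb, Ckmt1 and Ckmt2 phosphorylate it, and Alpl is a phosphatase that has been linked to phosphocreatine. Atp2a2 encodes the SERCA2 pump, Ryr2 a ryanodine receptor, and Sln sarcolipin, a small peptide that uncouples calcium transport from ATP use by the pump.

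RNA was sequenced from 3 fat depots of wild-type male C57BL/6J mice aged 16 weeks on regular chow, with 6 samples per depot: inguinal white fat (iWAT), epididymal white fat (eWAT) and brown fat (BAT). The labels name no transgene and no drug, so the depots are each other's reference. The iWAT and eWAT samples were floating mature adipocytes obtained with collagenase, whereas BAT was whole tissue, which the labels also call BAT adipocytes, so depot and preparation cannot be told apart. Samples are named below by their depot and the number in their title. In these bulk samples, fewer cells of a type and less RNA per cell cannot be told apart, and nothing in the labels says whether samples of a depot came from separate mice, so p-values measure the spread between samples.

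The depot labels matched their markers. Ucp1 reached 1219 ± 190 RPKM (reads per kilobase of row and per 1000000 reads of the sample, mean ± SD, n = 6) in BAT, 2.82 ± 1.92 in iWAT and 0.325 ± 0.165 in eWAT. The adipocyte gene Adipoq was measured at 1854 ± 237 RPKM in iWAT, 1789 ± 508 in eWAT and 302 ± 47.7 in BAT. Between 22929576 and 34512470 reads lay behind the RPKM of a sample. A few samples stood apart. The 12 skeletal muscle markers summed to 69.3, 178 and 2058 RPKM in BAT samples 6, 8 and 12, against 1.53 to 12.8 in the other 3 BAT samples, 9.85 to 82.6 in iWAT and 12.6 to 46.6 in eWAT. Much of the white sums was the marker Acta1 alone, at 4.72 to 68.2 RPKM in iWAT and 8.45 to 42.2 in eWAT. The marker Ckm reached at most 3.85 RPKM in iWAT and 0.0647 in eWAT. The sums are therefore not read as more muscle RNA in white samples than in those 3 BAT samples. The 6 macrophage markers summed to 1952 RPKM in eWAT sample 15, against 136 to 463 in the other 5 eWAT samples, 26.5 to 155 in iWAT and 25.6 to 57.9 in BAT. The 5 epididymal markers were at 0 in every iWAT sample but summed to 3.64, 76.1 and 70.9 RPKM in eWAT samples 13, 14 and 15.

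The deposited rows differ between depots, which bears on every comparison with eWAT. In iWAT and BAT each gene is 1 row with merged exons, whereas in eWAT each transcript has a row of its own, and the most-read transcript was taken. Merged rows were longer than the eWAT rows by a factor of 1.02 for Ckb, 1.27 for Gatm, 1.34 for Slc6a8, 1.61 for Gamt, 1.82 for Alpl and 2.18 for Atp2a2, so an eWAT row could collect reads from fewer bases. Fold changes below are log2 fold changes of read counts and are not corrected for these lengths. They can lie too low for eWAT where its row is shorter. They come from edgeR's quasi-likelihood test, scaled with TMM (trimmed mean of M-values). The adjusted p is that of Benjamini-Hochberg over all genes tested, and a call means an adjusted p under 0.05. RPKM divides by row length and is given for levels, and RPM is the reads per 1000000 reads of the sample, without row length. The kind of row and the depot cannot be told apart for eWAT.

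Of the 10 genes, 7 passed the minimum of 10 reads in at least 6 samples and were tested, while Ckmt1, Ckmt2 and Sln did not. Of the 7, 1 was called higher in iWAT and 3 higher in BAT, where 34.0% and 33.6% of all 19733 rows were called in these directions. Between eWAT and BAT, 2 were called higher in eWAT and 2 higher in BAT, beside 35.6% and 34.7% of all 18383 symbols. Between the white depots, 0 were called higher in iWAT and 4 higher in eWAT, beside 13.4% and 12.3% of all symbols. With 7 genes, the shares called against BAT are not read as different from these backgrounds, and the 2 comparisons with BAT share the BAT samples. The 4 called higher in eWAT than in iWAT are not read as an excess either. Among them, Ckb, Gatm and Slc6a8 were extreme in the same eWAT sample, and the Gatm call was lost without it. The kind of row also differs between these depots. The median log2 fold change over all genes tested was 0.01, 0.04 and 0.00 in the 3 comparisons. Without TMM it was 0.27 for iWAT over BAT and 0.36 for eWAT over BAT, and the share of calls in favour of the white depot went from 50.3% to 65.8% and from 50.6% to 66.3%.

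**Figure D1:**
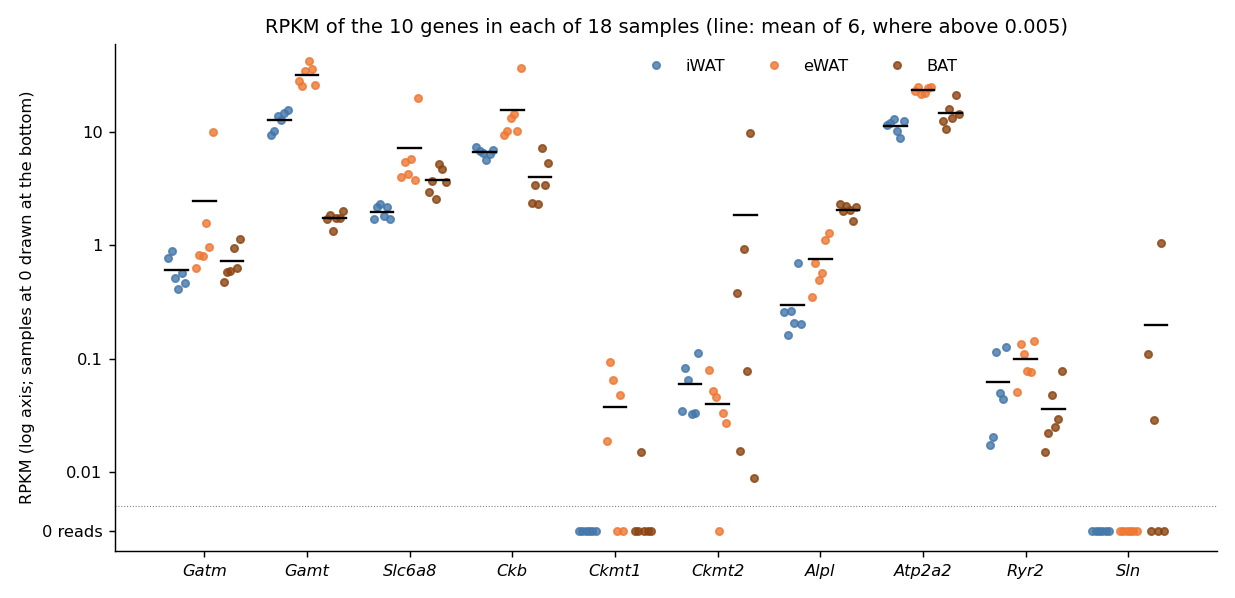
RPKM of the 10 genes on a log axis in each sample of iWAT, eWAT and BAT, with a line at the mean of the 6 samples of a depot. Gamt lay higher in all 12 white samples than in any BAT sample, Alpl lay lower in all 12, and Ckmt2 and Sln were spread widely over the BAT samples only. Row lengths differ between eWAT and the other depots.

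The stretches before the starts of 4 of these genes are shown because Gamt and Alpl differed most from BAT among the 7 tested members and in opposite directions, Ckb is the cytosolic kinase of the creatine cycle, and Ckmt2 varied widely within BAT. Each is the 250 bases before the RefSeq start (RefSeq table of build GRCm38.p6), 5′ to 3′ on the gene's strand, and each was found once on its chromosome in mm9, the build of the deposited files. Alpl has 2 starts in that table, and the outermost was taken. Which of them is used in these samples was not tested. All 4 genes lie on the minus strand. The positions are chr10:79723758-79724007 for Gamt, chr12:112910550-112910799 for Ckb, chr4:137352300-137352549 for Alpl and chr13:92016491-92016740 for Ckmt2. For Ckb, Alpl and Ckmt2 the stretch ends where the merged row of the files begins, and that of Gamt lies within its merged row's span. Capitals mark matches to the motifs searched.
Gamt: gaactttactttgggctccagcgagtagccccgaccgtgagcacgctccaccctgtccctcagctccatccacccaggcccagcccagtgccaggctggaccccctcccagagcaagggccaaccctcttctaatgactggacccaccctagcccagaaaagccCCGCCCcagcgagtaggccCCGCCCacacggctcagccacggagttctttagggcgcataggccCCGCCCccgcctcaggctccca
Ckb: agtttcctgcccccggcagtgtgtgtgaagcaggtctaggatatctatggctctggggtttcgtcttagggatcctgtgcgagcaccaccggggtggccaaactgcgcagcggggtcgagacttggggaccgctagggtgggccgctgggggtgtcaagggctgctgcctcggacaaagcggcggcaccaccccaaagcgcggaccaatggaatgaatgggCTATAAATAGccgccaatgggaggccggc
Alpl: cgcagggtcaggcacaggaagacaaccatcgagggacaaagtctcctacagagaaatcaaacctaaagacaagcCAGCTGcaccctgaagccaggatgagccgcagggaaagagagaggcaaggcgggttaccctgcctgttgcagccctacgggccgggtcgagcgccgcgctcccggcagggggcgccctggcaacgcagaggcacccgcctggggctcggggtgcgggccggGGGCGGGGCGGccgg
Ckmt2: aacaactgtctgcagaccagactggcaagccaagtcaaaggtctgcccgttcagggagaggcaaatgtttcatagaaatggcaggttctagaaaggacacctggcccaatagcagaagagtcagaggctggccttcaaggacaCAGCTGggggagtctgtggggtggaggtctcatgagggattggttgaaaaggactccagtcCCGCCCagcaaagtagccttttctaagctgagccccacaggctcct

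The motifs were searched on both strands: the GC box GGGCGG, which 32.7% of all 32817 RefSeq stretches of this length hold, the E-box CAGCTG (13%), the TATA box TATAAA (12.4%), the MEF2 site, searched as CTA and TAG with 4 bases of any kind between them (3.20%), the nuclear receptor motif AGGTCA (14%) and TGACG, the core of the cAMP response element (17.7%). Gamt held 3 GC boxes, all on the other strand, and no other motif of the 6. Alpl held 2 overlapping GC boxes close to the start taken and 1 E-box. Ckb held 1 TATA box that lies wholly within 1 MEF2 match, from 29 to 20 bases before the start, and no GC box. Ckmt2 held 1 E-box and 1 GC box. AGGTCA and TGACG were not matched in these 4 stretches. These are letter matches only, with no measurement of binding behind them.

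Creatine synthesis differed between its 2 enzymes. Gamt, which methylates guanidinoacetate to creatine in the last step, was, of the 7 tested members, the one with the largest difference in favour of white fat (GeneID 14431, chr10:79720896-79727920, minus strand, 7 merged exons). It had 341, 414, 699, 493, 734 and 647 reads in iWAT samples 7, 11, 12, 13, 14 and 15, and 93, 100, 57, 84, 85 and 95 reads in BAT samples 6, 7, 8, 11, 12 and 13. No BAT sample came near an iWAT sample. In eWAT samples 7, 8, 11, 13, 14 and 15 it had 931, 849, 988, 1253, 934 and 837 reads. On the same merged row, Gamt was measured at 12.8 ± 2.51 RPKM in iWAT and 1.73 ± 0.222 RPKM in BAT (mean ± SD, n = 6). The log2 fold change was 2.61 ± 0.13 (SE) for iWAT over BAT with an edgeR adjusted p of 7.88e-10, or 6.12-fold, and 3.19 ± 0.15 for eWAT over BAT with an adjusted p of 1.61e-12, or 9.11-fold. Between the white depots it was higher in eWAT by 1.54-fold (log2 fold change of iWAT over eWAT −0.62 ± 0.13, adjusted p 0.00244), although the eWAT row is the shorter. The lowest eWAT sample and the highest iWAT sample met, at 24.9 and 25.0 RPM. The span of Gamt overlaps that of the opposite-strand gene Dazap1, with 0 bases shared between their exons.

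Gatm makes guanidinoacetate from arginine and glycine, the first step of creatine synthesis (GeneID 67092, chr2:122420203-122437039, minus strand, 9 merged exons). It was low in every depot. Reads ran from 30 to 68 in iWAT, with a median of 51.5, and from 48 to 101 in BAT, with a median of 59.5. The eWAT samples held 50, 66, 55, 113 and 60 reads in samples 7, 8, 11, 13 and 14, and 770 in sample 15. All 3 depots overlapped. In iWAT, Gatm was highest in samples 7 and 11, at 0.769 and 0.884 RPKM, and within BAT in samples 11 and 13, at 0.948 and 1.13 RPKM. The same 4 samples had the highest macrophage marker sums of their depots, at 155, 83.6, 51.0 and 57.9 RPKM, and the part of macrophage RNA was not tested. The difference between iWAT and BAT did not pass the test (log2 fold change −0.52 ± 0.24, adjusted p 0.0700), and neither did that between eWAT and BAT (1.12 ± 0.58, adjusted p 0.0916). Gatm was called higher in eWAT than in iWAT (log2 fold change of iWAT over eWAT −1.69 ± 0.59, adjusted p 0.0427). That call was lost on leaving out any single iWAT sample (adjusted p 0.0509 to 0.0820), while the log2 fold change stayed between −1.84 and −1.60. Without eWAT sample 15 that value was −0.29 with an adjusted p of 0.488, and the value for eWAT over BAT turned to −0.28 with an adjusted p of 0.355. Without BAT samples 6, 8 and 12, iWAT was called lower than BAT (−0.82, adjusted p 0.0342).

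Slc6a8, the creatine transporter of the cell surface (GeneID 102857, chrX:70918472-70927841, plus strand, 12 merged exons), was higher in BAT than in iWAT. It had 208, 295, 396, 233, 366 and 233 reads in the iWAT samples and 544, 674, 367, 852, 777 and 577 in the BAT samples. The 2 depots did not overlap, at 9.01 to 12.3 RPM in iWAT and 13.7 to 27.9 in BAT. The levels were 1.97 ± 0.271 and 3.80 ± 1.01 RPKM, and the log2 fold change of iWAT over BAT was −1.20 ± 0.14 (adjusted p 3.85e-06, 2.30-fold). In eWAT it had 542, 731, 490, 697 and 397 reads in samples 7, 8, 11, 13 and 14, and 2591 in sample 15. iWAT was lower than eWAT by 2.72-fold (log2 fold change −1.45 ± 0.35, adjusted p 0.00488), and remained lower without eWAT sample 15 (−0.79 ± 0.15, adjusted p 0.000779). eWAT and BAT did not differ beyond their spread with all samples (0.20 ± 0.34, adjusted p 0.609), while without eWAT sample 15 the sign turned and eWAT was called lower than BAT (−0.46 ± 0.15, adjusted p 0.00946). With all samples and the sum of all eWAT rows, Slc6a8 was called higher in eWAT (1.45, adjusted p 0.000894), so no direction between eWAT and BAT is drawn.

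Among the kinases that charge creatine, Ckb, the cytosolic brain-type creatine kinase, was the only one with reads in quantity in all 3 depots (GeneID 12709, chr12:112907566-112910549, minus strand). It had 504, 525, 625, 412, 610 and 539 reads in the iWAT samples and 242, 351, 186, 657, 315 and 468 in the BAT samples. In RPM, BAT sample 11 lay within the iWAT range and the other 5 below it, so the depots overlapped. The levels were 6.65 ± 0.570 RPKM in iWAT and 4.0 ± 1.91 RPKM in BAT, and the difference did not pass the test (log2 fold change 0.49 ± 0.22, adjusted p 0.0561). That call was close to the threshold. It passed without BAT sample 11 (0.67, adjusted p 0.00454), without BAT sample 13 (0.56, adjusted p 0.0404) and with DESeq2 (0.49, adjusted p 0.0403), and was 0.07 with an adjusted p of 0.767 without BAT samples 6, 8 and 12. In no setting tried was Ckb called higher in BAT than in a white depot.

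Ckb was highest in eWAT, with 929, 1020, 1145, 1270 and 802 reads in samples 7, 8, 11, 13 and 14 and 3534 reads in sample 15. No eWAT sample overlapped with iWAT or BAT, at 27.4 to 108 RPM against 17 to 22.0 and 6.96 to 21.5. The log2 fold change was 1.66 ± 0.32 for eWAT over BAT (adjusted p 0.000150, 3.16-fold) and −1.21 ± 0.32 for iWAT over eWAT (adjusted p 0.00853, 2.32-fold). Without eWAT sample 15 these were 1.19 ± 0.21 (adjusted p 6.12e-05) and −0.74 ± 0.21 (adjusted p 0.0148). The merged row of Ckb is 1 block of 2984 bases that covers the gene's introns, which makes its RPKM lower than on a spliced transcript. In eWAT the spliced row NM_021273 of 1478 bases held 8232 of the reads and the unspliced row AK165779 of 2939 bases 8700, at 29.6 and 15.7 RPKM.

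The 3 creatine genes that were extreme in eWAT sample 15 were high where macrophage markers were also highest, which rests on that sample alone. Ckb reached 36.7 RPKM in that sample against 9.33 to 14.3 in the other 5, Slc6a8 19.9 against 3.75 to 5.80, and Gatm 9.97 against 0.626 to 1.59. Gamt was within the range of the others in the same sample, at 26.1 RPKM against 25.5 to 42.4. Emr1, a macrophage gene, reached 81.5 RPKM against 3.98 to 14, and all 6 macrophage markers were detected in every sample. Sample 15 stood apart in other markers too. Its fibroblast and preadipocyte markers had the highest sum of eWAT, at 90.7 RPKM against 33.3 to 69.2. Its adipocyte markers had the lowest, at 9313 RPKM against 12983 to 17091, and its epididymal markers summed to 70.9 RPKM. The part of any of these cell types in the values of Ckb, Slc6a8 and Gatm was not tested.

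**Figure D2:**
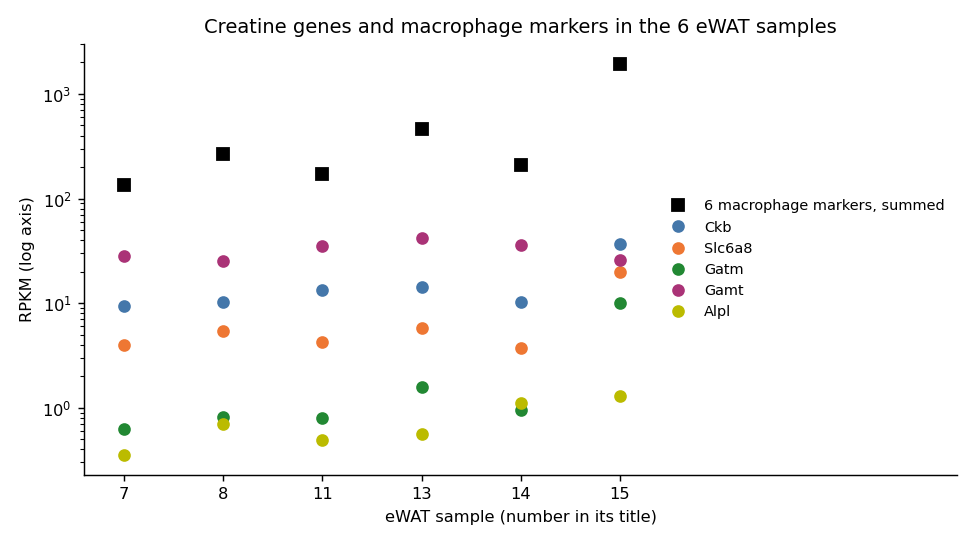
RPKM on a log axis of Ckb, Slc6a8, Gatm, Gamt and Alpl in the 6 eWAT samples, beside the sum of 6 macrophage markers (squares). In sample 15 the marker sum was 1952 RPKM and Ckb, Slc6a8 and Gatm were at their highest, whereas Gamt was at 26.1 RPKM, within the range of the other samples.

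The mitochondrial creatine kinases had few reads in white fat. Ckmt1, the ubiquitous form (GeneID 12716, chr2:121183450-121189473, plus strand), had 0 reads in all 6 iWAT samples, 1, 5, 3, 0, 2 and 0 in the eWAT samples and 1 read in BAT sample 8. A sample with 0 reads could still hold up to 3, which is 0.0374 to 0.0524 RPKM in iWAT. Its exons share 10 bases with the opposite-strand gene Strc. With no minimum of reads, the adjusted p between iWAT and eWAT was 0.0408, on these few reads and on rows of different kinds.

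Ckmt2, the sarcomeric form known from heart and skeletal muscle (GeneID 76722, chr13:91992992-92016490, minus strand, 10 merged exons), had 3 to 11 reads in the iWAT samples and 0 to 6 in the eWAT samples. BAT samples 6, 7, 8, 11, 12 and 13 held 50, 2, 94, 9, 1164 and 1 reads. The BAT samples thus ranged from 0.00882 to 9.80 RPKM. The reads followed those of Ckm, the creatine kinase of skeletal muscle, which had 512, 1, 1012, 72, 13635 and 7 reads in the same samples. Per 100 Ckm reads, Ckmt2 had 9.77, 9.29, 12.5 and 8.54 reads in BAT samples 6, 8, 11 and 12. In the other 2 BAT samples Ckm had too few reads for a ratio, and Ckmt2 had 2 and 1. With no minimum of reads, Ckmt2 was called higher in BAT than in iWAT (log2 fold change of iWAT over BAT −5.17, adjusted p 0.00311). Without BAT sample 12 the value was −2.46 (adjusted p 0.0196), and without BAT samples 6, 8 and 12 it was 0.67 (adjusted p 0.455). The most-read eWAT row of Ckmt2, AK085820, is a single exon, and the rows that span its spliced transcript held 4 reads in all 6 eWAT samples together. The exons share 15 bases with the opposite-strand gene 1700119I11Rik.

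**Figure D3:**
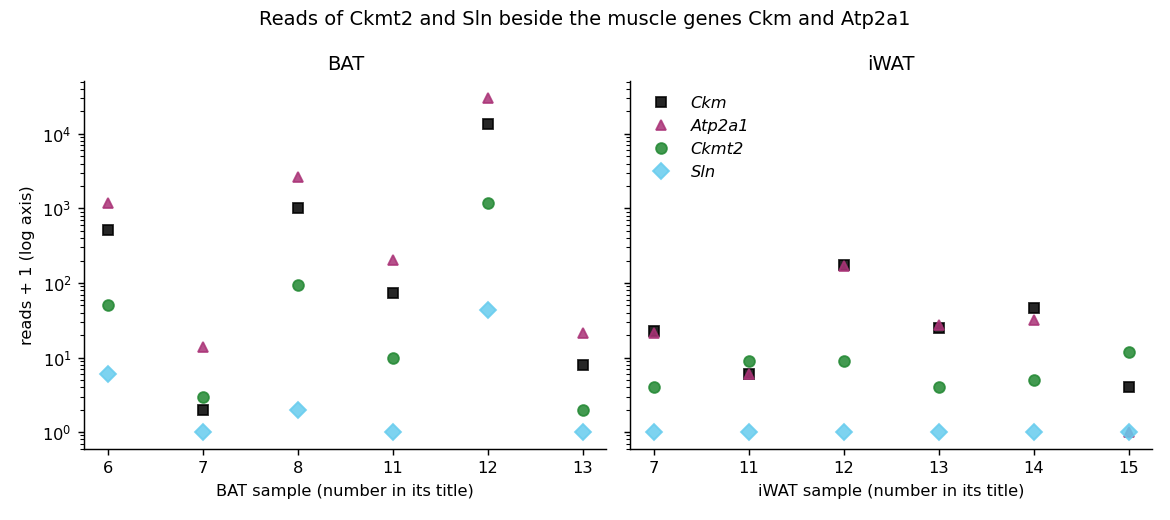
Reads plus 1 on a log axis of Ckmt2 and Sln and of the muscle genes Ckm and Atp2a1 in each BAT sample (left) and iWAT sample (right). In BAT the 4 genes were highest in sample 12 and all but Sln were next highest in samples 8 and 6, while in iWAT Ckmt2 stayed between 3 and 11 reads.

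Alpl, tissue-nonspecific alkaline phosphatase, was, of the 7 tested members, the one with the largest difference in favour of BAT (GeneID 11647, chr4:137297647-137352299, minus strand, 23 merged exons). It had 369, 316, 271, 285, 231 and 295 reads in the BAT samples and 27, 19, 39, 23, 101 and 24 in the iWAT samples. In eWAT it had 30, 60, 36, 43, 75 and 107 reads. All 12 white samples lay below every BAT sample, at 0.742 to 3.26 RPM against 7.44 to 10.7. The level in BAT was 2.07 ± 0.247 RPKM and that in iWAT 0.299 ± 0.198 RPKM. The log2 fold change was −3.04 ± 0.30 for iWAT over BAT (adjusted p 6.74e-07, 8.20-fold) and −2.65 ± 0.35 for eWAT over BAT (adjusted p 1.78e-06, 6.26-fold). Both were kept at −3.04 and −2.60 without BAT samples 6, 8 and 12. The size of the eWAT difference depended on row and scale, at −1.77 with the sum of all eWAT rows and −1.45 on log2(RPKM + 0.1) with limma, both called.

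Between the white depots Alpl did not pass the test (log2 fold change of iWAT over eWAT −0.44 ± 0.35, adjusted p 0.378). The call depended on the eWAT row, the scale and 1 sample. With all samples, Alpl was called lower in iWAT than in eWAT with the sum of all eWAT rows (−1.29, adjusted p 0.00278), with the transcript of highest RPKM (−0.83, adjusted p 0.0461) and on log2(RPKM + 0.1) with limma (−1.10, adjusted p 0.00205). iWAT sample 14 stood at 0.696 RPKM, against 0.162 to 0.265 in the other 5. Without it Alpl was called lower in iWAT than in eWAT (−0.91, adjusted p 0.0244). The same sample had the highest sum of 5 endothelial markers in iWAT, at 135 RPKM against 23.2 to 68.7. Its sum of 8 brown adipocyte markers was also the highest of iWAT, at 127 RPKM against 81.6 to 110. Ucp1 was at 5.76 RPKM in it, against 0.494 to 3.95. The part of endothelial or brown adipocyte RNA was not tested. In eWAT, samples 14 and 15 were highest for Alpl at 1.12 and 1.3 RPKM, and these 2 also held the most epididymal markers. Without them eWAT was lower than BAT by a log2 fold change of −3.17.

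**Figure D4:**
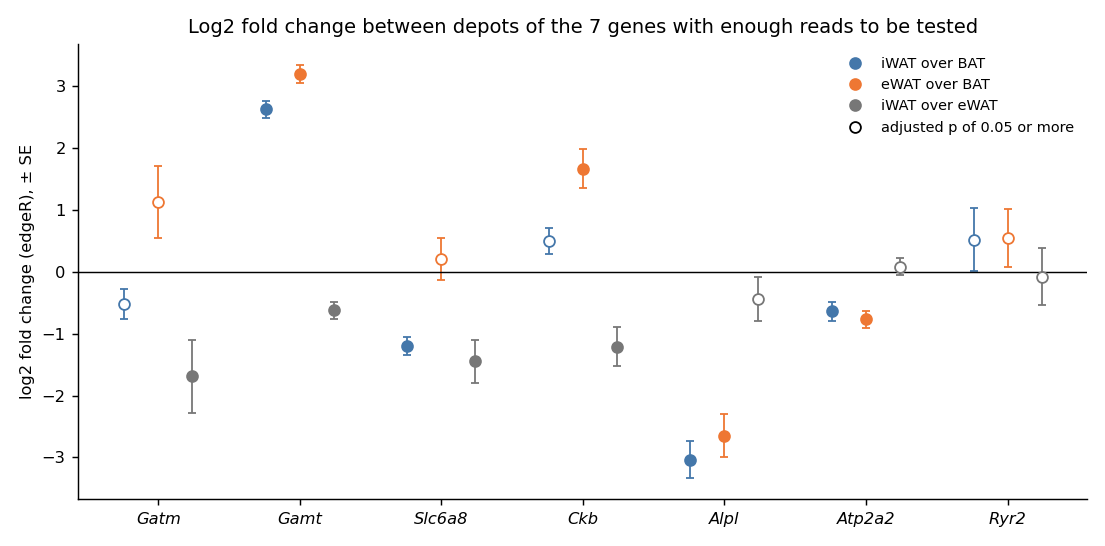
Log2 fold change ± SE from edgeR for the 7 tested genes in the 3 comparisons, with open circles where the adjusted p was 0.05 or more. Gamt lay at 2.61 and 3.19 over BAT and Alpl at −3.04 and −2.65, whereas Ryr2 at 0.51, 0.54 and −0.09 was not called.

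The genes around the creatine cycle were given by a list of 17, chosen with earlier results of these data known. It holds adenine nucleotide, phosphate and acylcarnitine carriers, porins, adenylate kinases, methylation enzymes and others. Of the 15 tested between iWAT and BAT, 4 were higher in iWAT and 10 in BAT, beside 34.0% and 33.6% of all rows, with a median log2 fold change of −0.72 beside 0.01 over all rows. Of the 16 tested between eWAT and BAT, 3 were higher in eWAT and 10 in BAT, beside 35.6% and 34.7% of all symbols, with a median of −0.85 beside 0.04. Between the white depots 2 were higher in iWAT, 1 in eWAT and 13 were not called, beside 13.4% and 12.3% called over all symbols. Without BAT samples 6, 8 and 12, 3 and 8 of 14 were called between iWAT and BAT, and 1 and 9 of 15 between eWAT and BAT. The share of all rows called without these samples was not computed. With all samples, most of the genes called higher in BAT were mitochondrial carriers and porins, and another was Ckm of skeletal muscle. These counts are therefore not read as a trait of the creatine cycle.

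Phospho1, a phosphatase of phosphocholine and phosphoethanolamine known from bone mineralization, was higher in BAT than in both white depots. It had 6625 to 12488 reads in the BAT samples with a median of 8537.5, 138 to 334 in iWAT with a median of 229, and 302 to 678 in eWAT with a median of 374.5. The depots were far apart, with 149 ± 33.6 RPKM in BAT and 4.57 ± 0.924 RPKM in iWAT on the same row. Its log2 fold change was −5.28 ± 0.18 for iWAT over BAT (adjusted p 3.15e-11) and −4.71 ± 0.22 for eWAT over BAT (adjusted p 1.37e-12), and −5.43 and −4.80 without BAT samples 6, 8 and 12. Phospho1 was also called higher in eWAT than in iWAT (−0.63 ± 0.19, adjusted p 0.0224), with an adjusted p of 0.0590 without eWAT sample 15.

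Ckm was called higher in BAT (log2 fold change −6.01 ± 1.68 for iWAT over BAT, adjusted p 0.00582), with the reads by sample given above, and fell below the minimum of reads without BAT samples 6, 8 and 12. Slc20a1, a phosphate importer, was higher in iWAT than in BAT (1.37 ± 0.20, adjusted p 3.25e-05) and in eWAT than in BAT (1.19 ± 0.21, adjusted p 7.11e-05). Mat2a makes S-adenosylmethionine, the methyl donor that Gamt uses. It was higher in both white depots than in BAT, with 348 ± 45.0 RPM in iWAT, 211 ± 41.8 in eWAT and 116 ± 28.7 in the BAT samples, and higher in iWAT than in eWAT (0.74 ± 0.14, adjusted p 0.00113). The Mat2a call of eWAT over BAT (0.55, adjusted p 0.00229) was lost without BAT samples 6, 8 and 12 (0.39, adjusted p 0.0774). Slc25a3, the phosphate carrier of mitochondria, was called higher in iWAT than in eWAT by read counts (0.41 ± 0.09, adjusted p 0.00305), but its RPKM went the other way, at 37.2 ± 2.67 in iWAT and 137 ± 15.4 on the shorter eWAT row, so no direction is drawn.

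**Figure D5:**
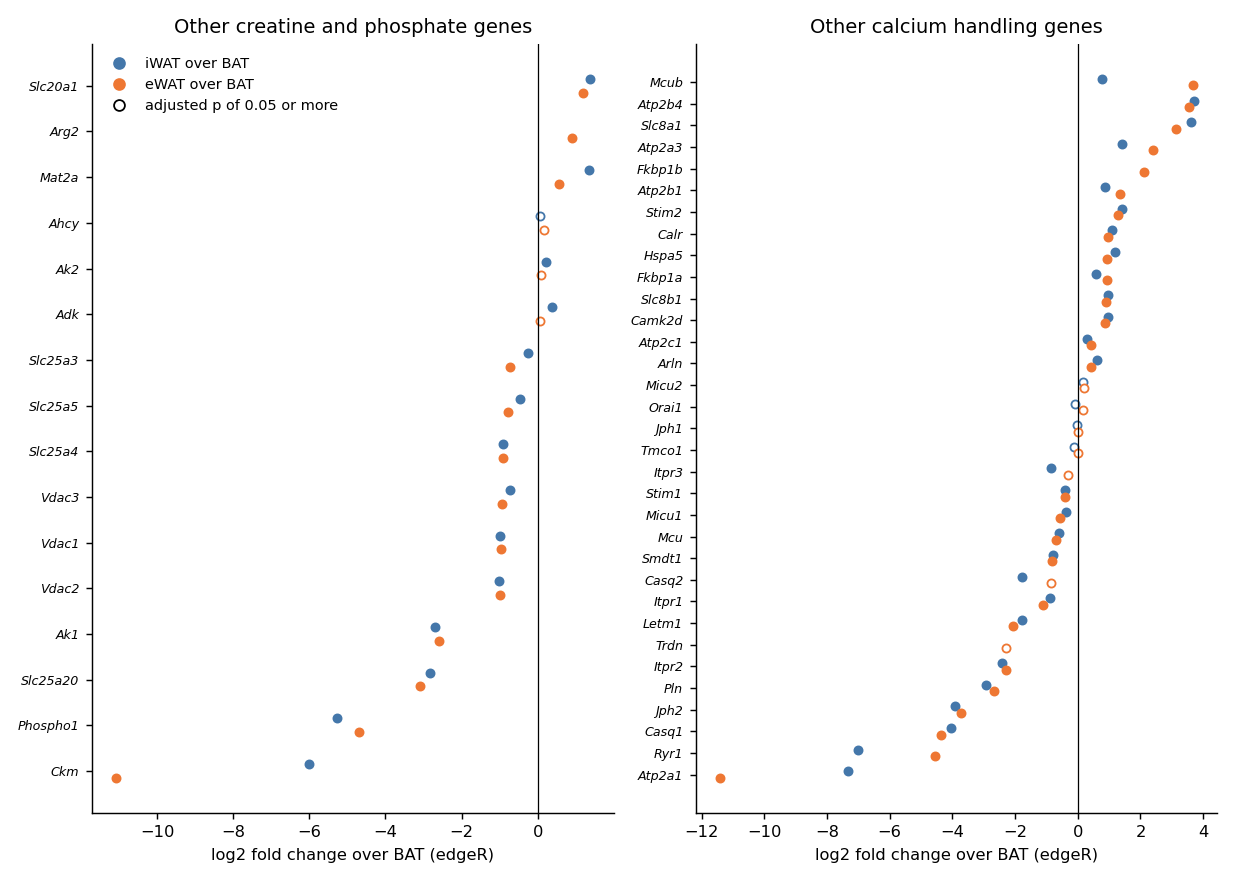
Log2 fold change over BAT from edgeR of the other creatine and phosphate genes (left) and the other calcium handling genes (right), iWAT in blue and eWAT in orange, with open circles where the adjusted p was 0.05 or more. Phospho1 lay at −5.28 and −4.71, and Atp2b4 at 3.70 and 3.55.

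In the calcium cycle, Atp2a2 was the most abundant member in BAT (GeneID 11938, chr5:122903522-122952234, minus strand, 21 merged exons). It had 5372, 4494, 5234, 5051, 8101 and 5284 reads in the BAT samples, 3247, 3832, 5211, 3036, 3456 and 3976 in iWAT and 4421, 4856, 3589, 3816, 3703 and 4622 in eWAT. BAT sample 12, the sample with the most muscle reads, was highest, and the depots overlapped, at 131 to 261 RPM in BAT and 109 to 162 in iWAT. On the same row the levels were 14.7 ± 3.61 RPKM in BAT and 11.4 ± 1.60 RPKM in iWAT. The log2 fold change of iWAT over BAT was −0.64 ± 0.16 (adjusted p 0.00229, 1.56-fold). It was −0.45 (adjusted p 0.0170) without BAT samples 6, 8 and 12 and −0.37 (adjusted p 0.0405) without TMM, where the median of all genes was 0.27, and the call was lost on log2(RPKM + 1) with limma (−0.32, adjusted p 0.0503) and without BAT samples 6, 8 and 12 when no minimum of reads was set (−0.34, adjusted p 0.0680). A second merged row under the same symbol lies on the other strand, at chr5:122947596-122950827, with 43 to 105 reads in iWAT and 41 to 110 in BAT.

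The comparison of Atp2a2 with eWAT depended on the scale and on the eWAT row. By read counts eWAT was lower than BAT (log2 fold change −0.77 ± 0.14, adjusted p 7.14e-05) and did not differ from iWAT beyond its spread (iWAT over eWAT 0.08 ± 0.14, adjusted p 0.723). The merged row of 12356 bases is 2.18 times as long as the eWAT row of 5674 bases. On log2(RPKM + 0.1) with limma, eWAT was above BAT by 0.71, equal to the median of all genes on that scale of 0.71, and iWAT below eWAT by −1.06, beside a median of −0.34. No direction for Atp2a2 in eWAT is therefore drawn from either scale.

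Ryr2, the ryanodine receptor best known from heart (GeneID 20191, chr13:11645370-12199212, minus strand, 105 merged exons), was scarcely read. The iWAT samples had 10 to 92 reads with a median of 32.5, the eWAT samples 29 to 79 with a median of 46, and the BAT samples 13 to 58 with a median of 21. The levels were 0.0620 ± 0.0474, 0.0984 ± 0.0365 and 0.0361 ± 0.0232 RPKM in this order, and the ranges overlapped. None of the 3 comparisons passed the test, with log2 fold changes of 0.51 ± 0.51 for iWAT over BAT (adjusted p 0.380), 0.54 ± 0.47 for eWAT over BAT (adjusted p 0.311) and −0.09 ± 0.46 for iWAT over eWAT (adjusted p 0.913). The comparisons with eWAT turned on the row and scale. With the eWAT transcript of highest RPKM, Ryr2 was called lower in eWAT than in BAT (−1.83, adjusted p 0.00406) and than in iWAT (2.33, adjusted p 0.000914), with the sum of all eWAT rows lower in eWAT than in iWAT (1.29, adjusted p 0.0181), and on log2(RPKM + 0.1) with limma higher in eWAT than in BAT (0.54, adjusted p 0.0117). No direction for Ryr2 in eWAT is drawn.

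Sln had 0 reads in all 12 white samples, which allows up to 3 reads or 0.0669 to 0.0993 RPKM in a sample (GeneID 66402, chr9:53697971-53702367, plus strand, 2 exons). In BAT samples 6, 7, 8, 11, 12 and 13 it had 5, 0, 1, 0, 43 and 0 reads. The 3 samples with reads were the 3 with the most skeletal muscle reads. With no minimum of reads Sln was called higher in BAT than in iWAT (adjusted p 0.0263), and without BAT sample 12 it was not (adjusted p 0.0716).

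A list of 37 other genes of calcium handling, also chosen with earlier results of these data known, was divided. Of the 31 tested between iWAT and BAT, 13 were higher in iWAT and 14 in BAT, beside 34.0% and 33.6% of all rows, with a median log2 fold change of −0.09 beside 0.01 over all rows. Of the 33 tested between eWAT and BAT, 14 were higher in eWAT and 12 in BAT, beside 35.6% and 34.7% of all symbols, with a median of 0.00 beside 0.04. Between the white depots 0 were higher in iWAT, 5 in eWAT and 28 were not called, and with 13.4% and 12.3% of all symbols called, 5 of 33 is near the background. Without BAT samples 6, 8 and 12, 14 and 10 of 29 were called between iWAT and BAT, with the median turning to 0.27, and 16 and 9 of 32 between eWAT and BAT, with a median of 0.58. Without eWAT sample 15, 3 were called higher in iWAT and 3 in eWAT between the white depots. The share called and the median over all rows were not computed with these samples left out.

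Among the named genes higher in white fat, Atp2b4 and Slc8a1 move calcium out across the cell surface. Atp2b4, a plasma membrane calcium pump, had 315 ± 52.9 RPM in iWAT, 296 ± 98.5 in eWAT and 20.3 ± 5.01 in BAT. Its log2 fold change was 3.70 ± 0.15 for iWAT over BAT (adjusted p 1.18e-10) and 3.55 ± 0.23 for eWAT over BAT (adjusted p 1.54e-10). Slc8a1, a sodium-calcium exchanger, had 428 to 1002 reads in iWAT and 35 to 69 in BAT (3.62 ± 0.17, adjusted p 4.42e-10). Atp2a3, another SERCA pump, was higher in eWAT than in iWAT (iWAT over eWAT −1.05 ± 0.27, adjusted p 0.00813).

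On the BAT side, the genes that the naming rule gave were those of skeletal muscle, and others higher in BAT, such as Itpr2, are given under other observations. Atp2a1, the SERCA pump of fast muscle, had 1173, 13, 2604, 202, 30490 and 20 reads in the BAT samples, and Ryr1, the muscle ryanodine receptor, 249, 8, 439, 53, 5518 and 10. Both were called higher in BAT than in iWAT (log2 fold changes of iWAT over BAT −7.32 ± 1.80, adjusted p 0.00246, and −7.01 ± 1.63, adjusted p 0.00164). Without BAT samples 6, 8 and 12, Atp2a1 was at −1.09 with an adjusted p of 0.407 and Ryr1 had too few reads to be tested. Ryr1 reached the mean of 1 RPKM needed to be named through BAT sample 12, at 8.36 RPKM against a mean of 0.244 in the other 5. Both were also called higher in BAT than in eWAT (adjusted p 6.52e-05 and 0.00370), and without those samples Atp2a1 still was (adjusted p 0.00137), whereas Ryr1 was not (0.97, adjusted p 0.378). Mcub (Ccdc109b in the files), a subunit of the mitochondrial calcium uniporter, was higher in eWAT than in BAT (3.66 ± 0.68, adjusted p 9.96e-05) and than in iWAT (iWAT over eWAT −2.92 ± 0.64, adjusted p 0.00276), with up to 648 reads in eWAT. Without eWAT sample 15 these were 2.40 and −1.66, with adjusted p of 2.38e-05 and 0.00323.

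Within a depot, levels per kilobase put Gamt first in iWAT at 12.8 ± 2.51 RPKM, followed by Atp2a2 at 11.4 ± 1.60 and Ckb at 6.65 ± 0.570. Gamt and Atp2a2 did not differ beyond their spread there. In BAT the order was Atp2a2 at 14.7 ± 3.61, Ckb at 4.0 ± 1.91, Slc6a8 at 3.80 ± 1.01 and Alpl at 2.07 ± 0.247 RPKM, followed by Ckmt2 at 1.87 ± 3.90, which rests on sample 12, and Gamt at 1.73 ± 0.222. Ckb and Slc6a8 were within each other's spread in BAT. The orders in iWAT and BAT depend on the lengths of the merged rows, such as 12356 bases for Atp2a2 and 1581 for Gamt. The row of Ckb covers introns. Without row length, Atp2a2 had 140 ± 19.8 RPM in iWAT and Gamt 20.2 ± 3.97, so Gamt is not read as the more abundant of the 2 there. In eWAT the order depended on the transcript row. Gamt stood at 32.1 ± 6.70 RPKM, Atp2a2 at 23.6 ± 1.42, and Ckb at 15.7 ± 10.5 on its unspliced row and 29.6 ± 19.7 on its spliced row NM_021273.

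The genes most like each member were sought among 12689 genes over the 12 iWAT and BAT samples, as deviations of log2(RPKM + 0.1) from the depot mean, and are given as a description. The points share libraries and, within BAT, the muscle-rich samples. Ckmt2 varied most like Lmod2, Smtnl1 and Mb, muscle genes of the thin filament, of contraction and of oxygen storage (Pearson's r 0.993, 0.993 and 0.990, Spearman's rho 0.879, 0.856 and 0.930). Without the 2 BAT samples farthest from the median, 12 and 13, its r with them was still 0.972, 0.968 and 0.975. Gatm varied most like Cd44, a surface receptor of leukocytes and other cells, Capg and Fam111a (r 0.960, 0.944 and 0.932). Gamt varied most like Calm3, one of the calmodulin genes, Dpp3 and Mrm1 (r 0.946, 0.941 and 0.926). Alpl was closest to AK138007, Tmem59 and Mtmr11 (r 0.909, 0.909 and 0.908), a likeness that rests on iWAT samples 14 and 11, since r was 0.485, 0.595 and 0.659 without them. For Ckb the closest were Prkx, Uap1l1 and Slc12a4, for Slc6a8 Gm10294, AK041029 and Kctd20, and for Atp2a2 Tead1, Ibtk and Vmn2r-ps14, all at r between 0.908 and 0.947. The likeness of Ckb rests on BAT, where r was 0.993, 0.980 and 0.977, against 0.424, 0.425 and 0.261 within iWAT.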

How the data were processed

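Per the labels and the methods, RNA with a RIN above 8 was made into NEBNext Ultra libraries and sequenced on a HiSeq instrument, reads were mapped to mm9 and the Genomatix Genome Analyzer was used. The submitters' processing notes list cutadapt 1.16 and HISAT2 2.1.0. The counting rule and its use of strand are not given in the sources used here. The authors deposited raw read counts per row, and an RPKM, in which each read count is scaled by the row's length and a sample total. The rows are 53445 merged genes (iWAT, BAT) and 189660 transcripts (eWAT), where a read can count on several transcripts, so sums over eWAT rows are not depth. Floors of 3 reads reflect counting error alone.

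From these values the depots were compared with edgeR 4.0.16 in R 4.3.3 (glmQLFit, glmQLFTest), on 12 samples for iWAT against BAT and on all 18 for comparisons with eWAT, for rows that reached 10 reads in 6 or more samples, with TMM, library sizes equal to the totals of the RPKM, and no block. Calls needed a Benjamini-Hochberg adjusted p under 0.05 over all rows. The standard error is the fold change divided by the root of the F statistic. The code was tested on simulated data. The members and lists were chosen with earlier results of these data known. Named besides the 10 members were, per list and comparison, the 2 called genes that changed most either way and whose mean RPKM reached 1 in their higher depot, and the 3 genes most like each member. Older symbols were matched by reference tables. Marker lists for cardiac and smooth muscle, mesothelium, fibroblasts and Schwann cells were computed too. In BAT they summed to at most 10.0, 18.1, 13.4, 24.3 and 47.7 RPKM, in eWAT to at most 0.424, 98.0, 31.7, 90.7 and 11.0, and in iWAT to at most 0.163, 24.9, 4.59, 37.0 and 13.3. The 8 brown adipocyte markers summed to 3019 to 3773 RPKM in BAT and at most 127 in a white sample, and the 6 adipocyte markers to 5808 to 7188 and at least 9313.

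Alternatives were DESeq2 1.42.0, no TMM, other filters, limma 3.58.1 on log2(RPKM + 0.1) and log2(RPKM + 1), other choices of eWAT row, the number in the titles as a block, and leaving samples out. Leaving out BAT samples 6, 8 and 12 was chosen after seeing the data.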

Additional observations from a re-analysis of the deposited data

Results flagged for a closer look

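Of 24 gene and depot combinations with at least 10 reads in a sample, 6 had 1 sample far from the other 5 by Dixon's criterion. Chance would give 1.2 for independent and normally distributed values. RPKM need not be normal and several flags share a sample, so no excess over chance is read from the 6. In eWAT sample 15, Ckb was at 36.7 RPKM against 9.33 to 14.3 in the other 5 samples, Gatm at 9.97 against 0.626 to 1.59, and Slc6a8 at 19.9 against 3.75 to 5.80. In iWAT sample 14, Alpl was at 0.696 RPKM against 0.162 to 0.265. In BAT sample 12, Ckmt2 was at 9.80 RPKM against 0.00882 to 0.920 and Sln at 1.05 against 0 to 0.110. Sln reached 10 reads in that sample only, so it entered the 24 through the value that was flagged. Macrophage markers were highest in eWAT sample 15, where fibroblast markers were also the highest and adipocyte markers the lowest of eWAT. Endothelial and brown adipocyte markers were the highest of iWAT in sample 14. Skeletal muscle markers were highest in BAT sample 12, with the values given above. Their part in these 6 values was not tested.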

How the results depend on the processing

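Gamt and Alpl kept direction and call against BAT in every alternative run, with log2 fold changes of iWAT over BAT from 2.32 to 2.88 for Gamt and from −3.49 to −1.25 for Alpl, and of eWAT over BAT from 3.11 to 4.12 and from −3.17 to −0.83. For iWAT against BAT, 2 members instead of 1 were higher in iWAT with DESeq2, with no TMM, with no filter and with limma at either pseudocount, the addition being Ckb. Of all 19733 rows, 6711 were called higher in iWAT in the main fit and 6710 with DESeq2. With no TMM 9107 were, and with limma on log2(RPKM + 0.1) 9086. Leaving out 1 sample gave 1 to 2. With no filter 5 members were higher in BAT than in iWAT and 4 higher in BAT than in eWAT, Ckmt2 and Sln being added. With limma on RPKM at either pseudocount, 4 members were higher in eWAT than in BAT and 1 higher in BAT, and Atp2a2 turned to 0.71 and 0.68 for eWAT over BAT and to −1.06 and −1.0 for iWAT over eWAT. On log2(RPKM + 0.1), 65.2% of the calls between iWAT and BAT favoured iWAT (50.3% by edgeR), 77.8% of the calls between eWAT and BAT favoured eWAT and 10.3% of those between iWAT and eWAT favoured iWAT (52.2% by edgeR). With the sum of all rows, 1 member was higher in iWAT than in eWAT, Atp2a2 turned to −0.18 and Ryr2 to 1.29 for iWAT over eWAT, and Ryr2 to −0.81 for eWAT over BAT. With the transcript of highest RPKM, 2 were higher in iWAT than in eWAT, and Ryr2 turned to −1.83 and 2.33. Of all 18383 symbols, limma on log2(RPKM + 0.1) called 11492 higher in eWAT than in BAT and 3274 higher in BAT. With the sum of all rows, 6772 of 19043 symbols were called higher in iWAT than in eWAT. For the other settings the share called over all rows was not computed, so their counts of members are given as a description. The cause of these changes was not tested.

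Without eWAT samples 14 and 15, Gatm and Slc6a8 turned to −0.28 and −0.39 for eWAT over BAT, and Alpl and Ryr2 to 0.093 and 0.021 for iWAT over eWAT. With single samples left out, values for iWAT over eWAT ran from −0.42 to 0.10 for Ryr2, and for eWAT over BAT from −0.28 to 1.34 for Gatm and from −0.46 to 0.34 for Slc6a8. The signs of the last 2 turned without eWAT sample 15 (−0.28 and −0.46), and that of Ryr2 without iWAT samples 7 (0.10) or 11 (0.09) and eWAT samples 8 (0.01) or 15 (0.07). The Gatm call between the white depots was lost on leaving out any single iWAT sample (adjusted p 0.0509 to 0.0820 by edgeR), with the fold change still between −1.84 and −1.60, and in other settings. Rows shared by both kinds of file gave no member with a testable row on its own strand, so that alternative has no value.

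The labels do not say that equal numbers in the titles are 1 mouse, so they were not taken as pairs in the main fit. Same-numbered samples deviated together with r from −0.04 to 0.12, −0.14 to 0.05 and −0.31 to 0.14 in the 3 comparisons. Samples of a depot also differed in their marker sums, so these r cannot show whether equal numbers are 1 mouse. With the number as a block, 1 and 3, 2 and 2, and 0 and 3 members were called, Gatm lost its call between the white depots (−0.76, adjusted p 0.357 by edgeR), and Ryr2 turned to −0.00913 for iWAT over BAT and Gatm and Slc6a8 to −0.11 and −0.22 for eWAT over BAT.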

Other observations

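Some genes of the wider lists, named here after their values were seen, were higher in BAT than in both white depots. Ak1, a cytosolic adenylate kinase, had 780 to 2073 reads in the BAT samples and 132 to 265 in iWAT, a log2 fold change by edgeR of −2.69 with iWAT below BAT (adjusted p 6.04e-08), and −2.49 without BAT samples 6, 8 and 12. Itpr2, a calcium release channel of the endoplasmic reticulum gated by inositol trisphosphate, had 2772 to 4789 reads in BAT and 640 to 976 in iWAT (−2.42, adjusted p 7.18e-11). Without BAT samples 6, 8 and 12 its value was −2.55. Letm1, a cation exchanger of the inner mitochondrial membrane, had 4540 to 7137 reads in BAT and 1297 to 2135 in iWAT (−1.79, adjusted p 7.40e-09), and −1.71 without those samples. Slc25a20, the carnitine and acylcarnitine carrier, had 8025 to 10655 reads in BAT and 962 to 2201 in iWAT (−2.82, adjusted p 5.64e-10).

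Pln encodes phospholamban, which inhibits SERCA pumps. It had 25 to 45 reads in every BAT sample, 0 to 9 in iWAT and 2 to 16 in eWAT. The BAT samples did not overlap with the white ones, and the log2 fold change of iWAT over BAT was −2.92 (adjusted p 1.67e-05 by edgeR). No iWAT sample reached the minimum of reads, so Pln entered this fit only because every BAT sample did. The separation from iWAT and the call are therefore not independent of that minimum. The range over the BAT samples was narrow beside that of Atp2a1, at 13 to 30490 reads. The cell type behind the Pln reads was not tested.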
